A study of Danio rerio with 29 samples.

Results

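The transcripts of 9 pituitary hormone genes were followed through RNA-seq libraries of adult zebrafish bodies and brains: growth hormone (gh1), prolactin (prl), both somatolactins (smtla and smtlb), pro-opiomelanocortin (pomca), the shared glycoprotein alpha subunit (cga) and the beta subunits of thyrotropin (tshba), follicle-stimulating hormone (fshb) and luteinizing hormone (lhb). Members were taken by gene symbol from the rows of both deposited count tables, and they filled 10 of the 32520 rows of each. The files list gene identifiers, and the symbols came from a name table: pomca and tshba stand there under the orthologue symbols POMC and TSHB and were matched through RefSeq synonyms. The symbol CGA covers a pair of rows, ENSDARG00000040479 (called cga here) and ENSDARG00000103345, which held 1 count in all 29 libraries together and is not described further. The other identifiers were ENSDARG00000038185 (gh1), ENSDARG00000037946 (prl), ENSDARG00000038191 (smtla), ENSDARG00000017251 (smtlb), ENSDARG00000043135 (pomca), ENSDARG00000033726 (tshba), ENSDARG00000010841 (fshb) and ENSDARG00000099363 (lhb).

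The pituitary hangs below the hypothalamus in the floor of the skull. In teleost fish its anterior lobe holds separate cell types that make prolactin, growth hormone, the adrenocorticotropic peptide cut from pro-opiomelanocortin, thyrotropin and the gonadotropins, and its intermediate lobe makes somatolactin and melanocyte-stimulating hormone. Peptides and dopamine from hypothalamic nerve fibres that enter the gland set how much of each hormone is made and released. Because the gland lies on the skull floor, it can stay with the head or come out with the brain when a brain is dissected.

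The 29 libraries came from whole brains and from whole bodies after removal of the brain. Wild-type fish (WT) were compared with fish homozygous for a CRISPR/Cas9 mutation of ccser1, in a line labelled CCSER1_P471 (M) or a line labelled CCSER1_S48Y* (S), all grown to adulthood. WT fish were siblings obtained by crossing heterozygotes, and the labels do not say which line they came from. There were 6 WT, 6 M and 6 S bodies, and 3 WT, 4 M and 4 S brains. The labels give no sex, age or clutch, and they do not say whether each library was 1 fish or a pool, so p-values measure the spread between these libraries, which may be technical in part. Total counts ran from 9450422 to 11674882 in bodies and from 7445865 to 9521735 in brains. Transcript of the targeted gene CCSER1 was present in every group, at 4.60 ± 1.204 CPM (SD, n = 6) in WT bodies, 2.84 ± 0.752 in M bodies and 2.83 ± 0.971 in S bodies, and at 9.39 ± 1.79 (n = 3), 8.37 ± 1.54 (n = 4) and 10.7 ± 2.17 (n = 4) in the brains of those groups. CPM are counts of a gene per 1000000 counts of the library, on totals after TMM scaling.

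Growth hormone transcript was either plain or all but missing in a body. In WT bodies the gh1 counts were 0 at the lowest, 50.5 at the median and 154 at the highest, and in M bodies they were 0, 84.0 and 175. In S bodies the lowest was 51, the median 76.0 and the highest 108. WT bodies 1, 2 and 5 and M bodies 2 and 5 held at most 1 count of gh1, and the other 13 bodies held between 51 and 175, with no library between 1 and 51. All 6 S bodies were among the 13, beside 3 WT and 4 M bodies. A count of 0 allowed up to 3 counts of the library total, which was 0.257 CPM in the deepest body. As these were bulk libraries, fewer cells of a type and less RNA per cell cannot be told apart.

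Prolactin, which governs ion balance in fresh water in fish, followed the same libraries. The prl counts were 0 in all 5 bodies that held at most 1 gh1 count, and ran from 13 to 42 in the other 13. By group the lowest, median and highest counts were 0, 9.0 and 34 in WT bodies, 0, 16.0 and 22 in M bodies and 13, 25.5 and 42 in S bodies. The groups overlapped, and S body 6 was the highest of the 18.

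The somatolactins, hormones known from fish and tied there to pigment cells and background adaptation, were near the limit of detection. Counts of smtlb were 0 in the 5 bodies and ran from 1 to 13 in the other 13, with WT body 4 at 13 and S body 1 at 12. Counts of smtla were 0 in the 5 bodies and in 4 of the other 13, and did not exceed 5 in any library. Over the 18 bodies there were 74 counts of smtlb and 21 of smtla, too few to test either gene between groups.

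Pro-opiomelanocortin is the precursor of adrenocorticotropic hormone and melanocyte-stimulating hormone. Its transcript showed the same gap as gh1. The pomca counts were 1 or 2 in each of the 5 bodies and ran from 46 to 95 in the other 13. The lowest, median and highest counts were 2, 24.0 and 63 in WT bodies, 1, 72.5 and 95 in M bodies, and 63, 84.0 and 89 in S bodies. The highest WT body equalled the lowest S body at 63 counts, whereas the M bodies spanned the whole range.

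The glycoprotein hormones pair 1 alpha subunit with a beta subunit of their own. The alpha subunit gene cga had 0 or 1 count in each of the 5 bodies and 4 to 34 counts in the other 13. Its lowest, median and highest counts were 0, 9.5 and 34 in WT bodies, 0, 7.5 and 18 in M bodies and 4, 9.0 and 18 in S bodies. The groups overlapped throughout, and WT body 3 was the highest.

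Among the beta subunits, lhb did not share the gap. Luteinizing hormone drives the last steps of egg and sperm maturation. The lhb counts were 3, 4 and 8 in WT bodies 1, 2 and 5 and 12 and 5 in M bodies 2 and 5, against 1 to 16 in the other 13. These ranges overlapped, and S body 5, with 51 counts of gh1, had the lowest lhb count of the 18. Follicle-stimulating hormone supports the growth of ovarian follicles and of sperm-forming tissue, and its fshb counts were 0 in the 5 bodies and ran from 1 to 9 in the other 13. Thyrotropin drives the thyroid, and tshba gave 0 to 2 counts in the 5 bodies and 0 to 8 in the other 13, with M body 6 at 8 and every other body at 3 or fewer.

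**Figure D1:**
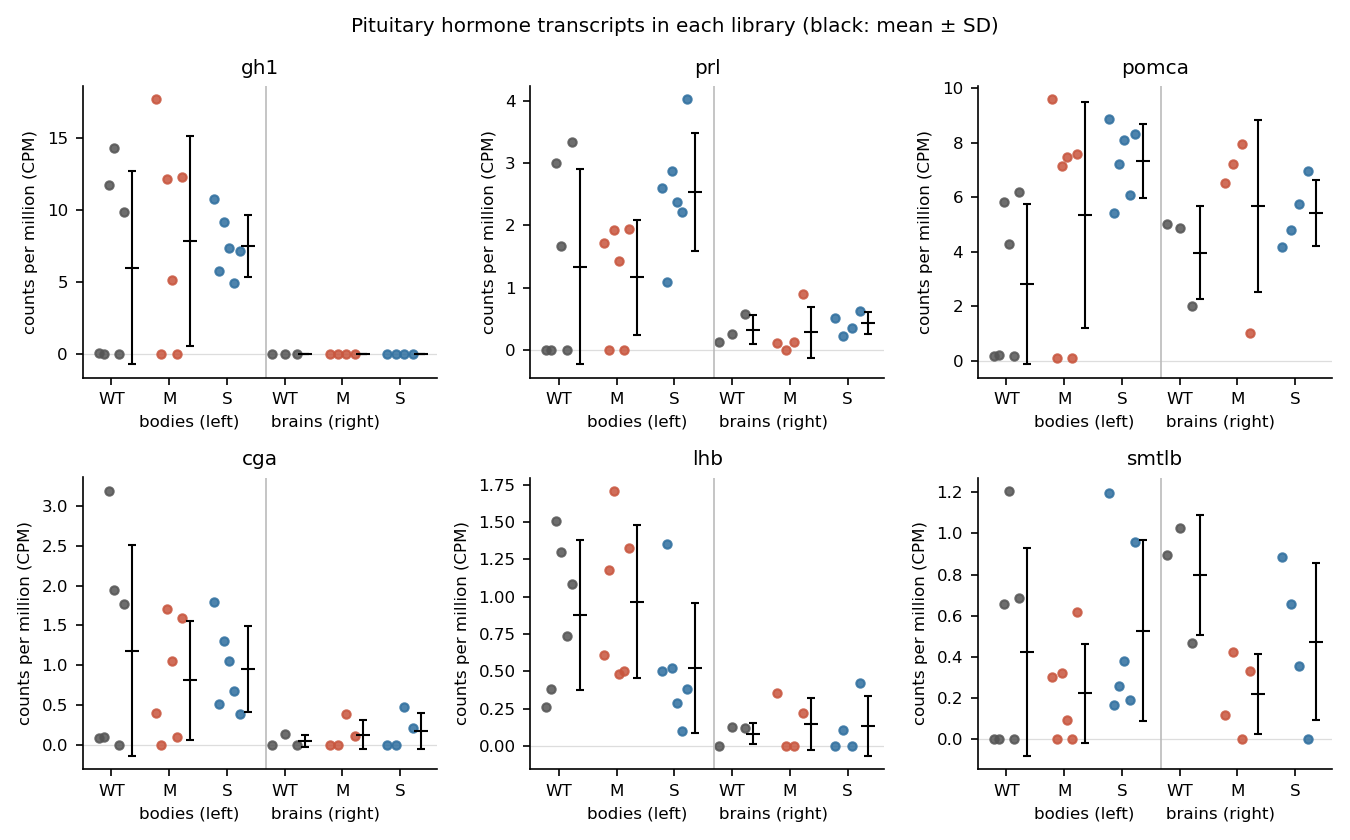
Level of 6 pituitary hormone transcripts in each library, in CPM on linear axes that differ between panels. TMM scaling was done within bodies and within brains, so heights left and right are not on a shared scale. Points are libraries of WT, M and S bodies (left of the grey line) and brains (right), and black marks give the mean and SD. The 5 bodies at 0 or 1 count of gh1 (3 WT and 2 M) also sit at the bottom for prl, pomca and cga but not for lhb, and gh1 is at 0 in all 11 brains.

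Over all hormone rows together, the 5 bodies held between 0.703 and 1.27 CPM and the other 13 held between 14.7 and 31.2 CPM. In 6 of the 10 hormone rows (gh1, prl, pomca, cga, fshb and smtlb) all 5 bodies lay below all 13, although for fshb and smtlb the gap was as small as 1 count. As the 5 were picked by gh1 itself, these counts are a description with no test. Of all 20240 genes tested in bodies, 4.88% had all 5 bodies below all 13, and 0.198% had them all above. Neither fshb nor smtlb had enough counts to be among those genes, and gh1 was low by the choice of the 5. Of the hormone rows among them, gh1, prl, pomca and cga had all 5 below and lhb did not.

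Summed markers of nerve tissue were also lower in the 5 bodies. The summed level of 9 neuron marker rows was 166 to 329 CPM in the 5 bodies and 363 to 865 CPM in the other 13, and in 7 of those rows the 5 lay below all 13. Hypothalamic markers summed to 0.1004 to 0.434 CPM in the 5 and to 0.477 to 8.30 CPM in the 13. The neuropeptide genes oxt, avp, pmchl and crha were at 0 counts in all 5. Of the 13 others, oxt was at 0 in 2, WT body 4 and S body 4, which held 154 and 77 counts of gh1. Counts of avp were 0 in 5 of the 13, those of pmchl in 1 and those of crha in 9. These genes are from a list of 21 rows of hypothalamic regulators, of which 2 had the 5 bodies below all 13. GAL held 34 to 55 counts in the 5 and 21 to 57 in the 13. ADCYAP1 held 37 to 80 and 35 to 73. Glia and myelin markers summed to 575 to 755 CPM in the 5 and 756 to 1045 CPM in the 13, so the gap there was small. The part of these tissues in the hormone levels was not tested.

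**Figure D2:**
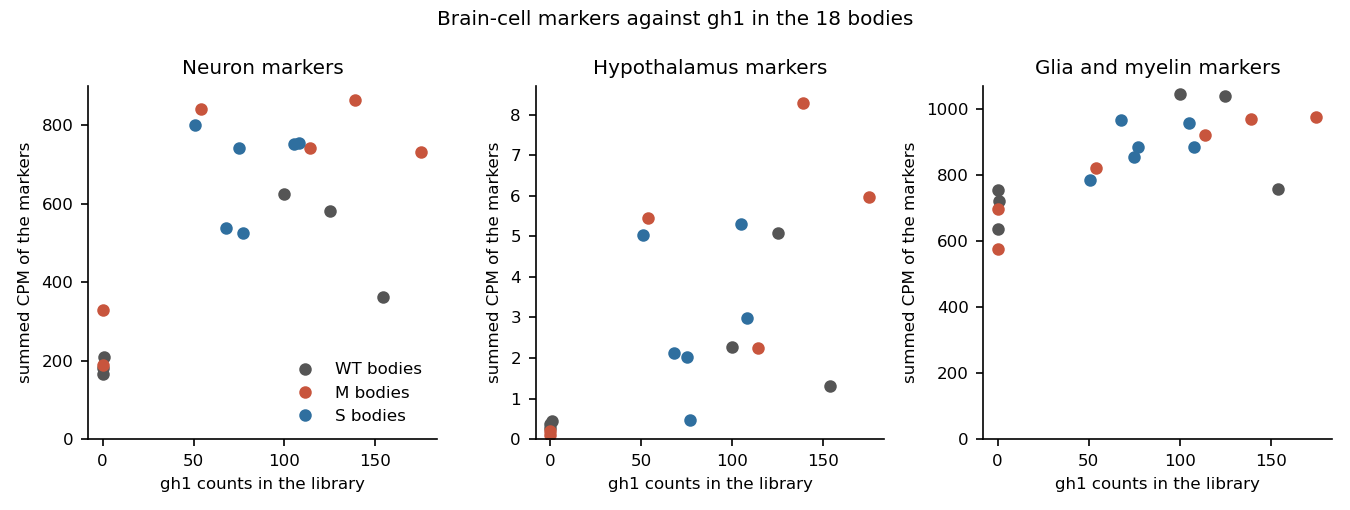
Summed level of neuron, hypothalamus and glia and myelin marker genes (CPM, linear axes from 0) against the number of gh1 counts in each of the 18 bodies, coloured by line. The 5 bodies at 0 or 1 gh1 count lie lowest in each panel, at 166 to 329 CPM for neurons, and among the other 13 the marker levels spread widely at similar gh1 counts.

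Known regulators of the pituitary cell types gave few counts. POU1F1, which pituitary cells need to make growth hormone, prolactin and thyrotropin, had 5 counts over the 5 bodies, 20 over the 13 and 0 over the 11 brains. TBX19, a factor of pro-opiomelanocortin cells, gave 9 and 20 counts, and LHX3 gave 2 and 11. These are sums over totals of 56085850 counts in the 5 and 134194931 in the 13, so they are not levels. Single bodies held 0 to 4 counts of TBX19 in the 5 and 0 to 5 in the 13. For POU1F1 these ranges were 0 to 2 and 0 to 5, and for LHX3 0 to 1 and 0 to 4, so all overlapped. Lens markers stayed at 0.353 CPM or below in every body, and the lens gene CRYAA was at 0 in all libraries.

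Within the 13 bodies, the make-up of the hormone counts was compared library by library. Growth hormone made up 32.0% to 56.6% of the hormone counts, with a median of 40.8%. Pro-opiomelanocortin made up 16.6% to 46.2%, prolactin 5.50% to 18.6%, cga 1.29% to 11.9%, lhb 0.654% to 9.20% and smtlb 0.592% to 4.69%. These are shares of counts, which also depend on transcript length, so they rank no gene against another. The spread between libraries was narrowest for gh1, whose highest share was 1.77 times its lowest, and it was 2.78 times for pomca, 3.38 times for prl and 14.1 times for lhb. The 13 were picked by gh1, itself a large part of the total, and lhb gave 1 to 16 counts in each. These spreads are thus a description and do not rank the genes by how steady they were.

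The ratio of pomca to gh1 was higher in each S body than in each WT body of the 13. In the 3 WT bodies there were 0.299, 0.496 and 0.630 counts of pomca for each count of gh1. The 4 M bodies ran from 0.543 to 1.44, and the 6 S bodies from 0.791 to 1.24. The S bodies thus did not overlap the WT bodies, and the M bodies overlapped both. With 3 WT bodies such a split is loosely set, and how many genes show one in their ratio to gh1 was not counted. In the edgeR test on all 18 bodies given below, 36.8% of all genes were called between S and WT. That share is of differences in level, so it is no background for the ratio. No test was run on this ratio, since the 13 bodies were selected by gh1. For prl the ratio was 0.117 to 0.340 in WT, 0.0971 to 0.278 in M and 0.191 to 0.560 in S bodies, with overlap between all groups. For cga it was 0.136 to 0.272 in WT, 0.0229 to 0.204 in M and 0.0533 to 0.167 in S bodies, and for smtlb 0.0560 to 0.0844, 0.0171 to 0.0504 and 0.0286 to 0.133. For smtlb the WT bodies thus lay above the M bodies, with at most 13 counts of smtlb in a body. How many genes show that split was not counted either.

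Scaled to cga in place of gh1, the gonadotropin subunits varied more. The 3 WT bodies held 0.471 to 0.667 counts of lhb for each count of cga, and the 13 bodies together ran from 0.143 to 2.67. For fshb the WT bodies held 0.206 to 0.389 counts for each count of cga, and the 13 ran from 0.0625 to 1.5. Both extremes of fshb came from M bodies, in which at most 6 counts of fshb lay behind the ratio.

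**Figure D3:**
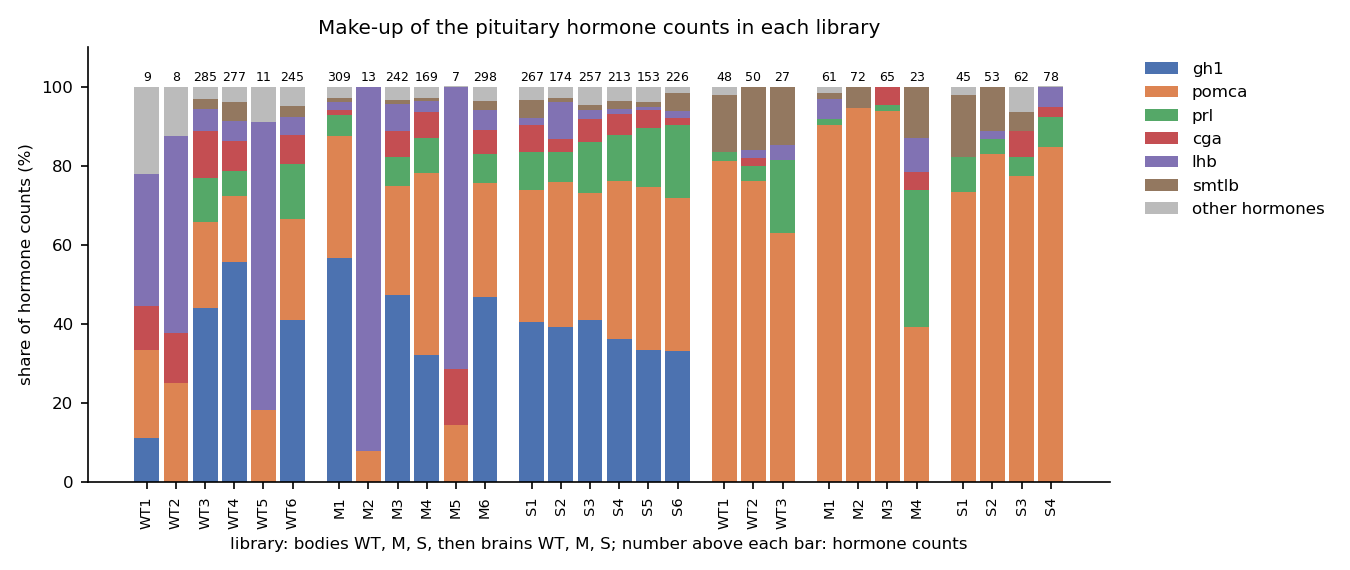
Share of each hormone gene among all pituitary hormone counts in every library, in percent; bars are libraries named by line and replicate, bodies first, and the number above a bar is its total of hormone counts. The 13 bodies with 153 to 309 hormone counts are led by gh1 and pomca, the 5 bodies with 7 to 13 counts have lhb as the largest share of counts, and in brains pomca holds 39.1% to 94.4% of 23 to 78 counts.

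To ask whether the ccser1 lines differed in hormone transcripts, the 3 groups of bodies were compared with edgeR's quasi-likelihood test over all genes. Of the 10 hormone rows, 5 had enough counts to be tested (gh1, prl, pomca, lhb and cga). None of the 5 was called at an adjusted p under 0.05 in M against WT, where 33.1% of all genes tested were called, nor in S against WT (36.8% of all genes) or M against S (8.1%). In each of the 3 comparisons 0 of the 5 had an unadjusted p under 0.05, and DESeq2 called 0. The standard errors of 0.498 to 1.07 on the log2 scale were wide for all 5. Differences of that size, and also larger ones, could thus go uncalled here. For pomca in S against WT a log2 difference of 1.39 (SE 0.852) did not pass (edgeR adjusted p = 0.204).

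For gh1 the group means were 5.99 ± 6.69 CPM in WT, 7.88 ± 7.29 in M and 7.52 ± 2.16 in S bodies (SD, n = 6 each). From low to high the order was WT, S and M, and neighbours in it differed by less than either SD. The log2 difference was 0.40 for M against WT (SE 1.07, edgeR adjusted p = 0.793) and 0.33 for S against WT (SE 1.07, adjusted p = 0.823). A fit without the 5 bodies at 0 or 1 gh1 count was added after the data were seen. Those bodies were picked by gh1 and all came from WT and M, which by itself raises the means of these groups for any hormone that was low in the same bodies. Hormone values from that fit are therefore given as a description with no test, and for gh1 they were -0.03 and -0.67.

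The largest fitted difference among the hormones was that of pomca in S bodies. Its means were 2.81 ± 2.95 CPM in WT, 5.33 ± 4.15 in M and 7.34 ± 1.36 in S bodies. The log2 difference was 1.39 for S against WT (SE 0.852, edgeR adjusted p = 0.204) and 0.93 for M against WT (SE 0.857, adjusted p = 0.408), and neither passed. Without the 5 bodies the values were 0.43 and 0.54.

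For prl the means were 1.34 ± 1.57 CPM in WT, 1.17 ± 0.924 in M and 2.53 ± 0.951 in S bodies. Its log2 difference was 0.92 for S against WT (SE 0.871, edgeR adjusted p = 0.412) and -1.10 for M against S (SE 0.883, adjusted p = 0.520). Without the 5 bodies the first was -0.08 and the second -0.53.

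The tested glycoprotein subunits were cga, at 1.18 ± 1.32 CPM in WT, 0.809 ± 0.748 in M and 0.953 ± 0.538 in S bodies, and lhb, at 0.877 ± 0.502, 0.966 ± 0.511 and 0.524 ± 0.435. For lhb the log2 difference of S against WT was -0.70 (SE 0.525, edgeR adjusted p = 0.295), and for cga it was -0.31 (SE 0.826, adjusted p = 0.788). Without the 5 bodies these were -1.26 and -1.27. The low lhb counts of 5 of the 6 S bodies, 1 to 6, lay inside the range of 3 to 16 in WT bodies save for that of S body 5, and S body 2 held 16.

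**Figure D4:**
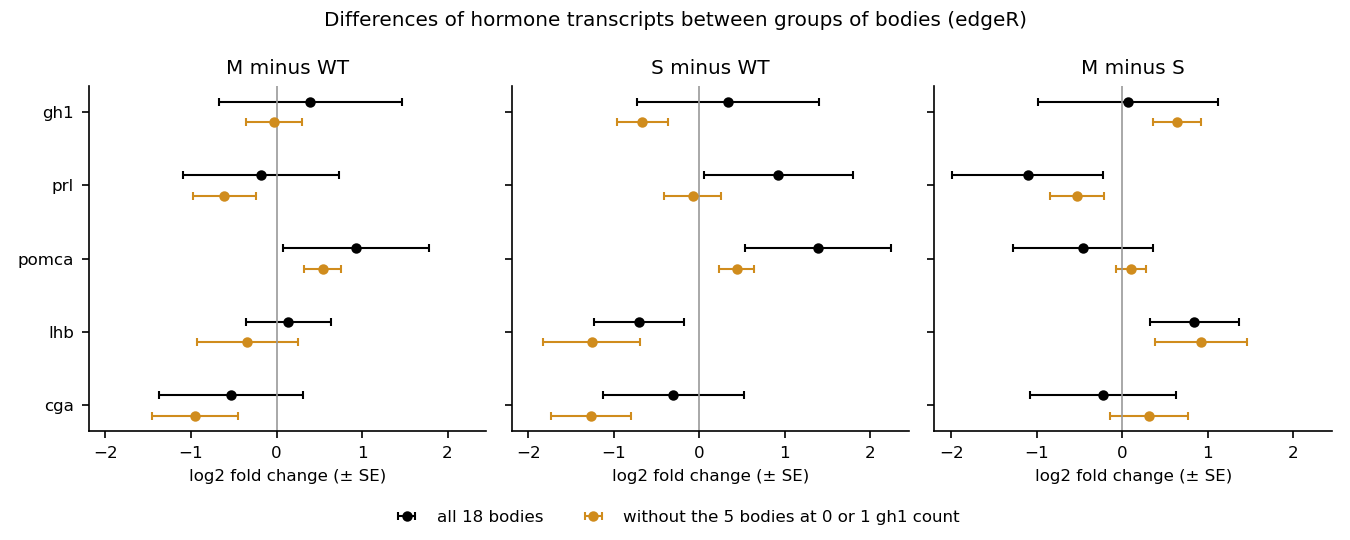
Fitted log2 fold change of the 5 tested hormone genes between groups of bodies (points, with SE as bars), from edgeR fits on all 18 bodies (black) and without the 5 bodies at 0 or 1 gh1 count (orange). Leaving out the 5 bodies narrowed the bars of gh1, prl, pomca and cga and moved the S minus WT value of gh1 from 0.33 to -0.67, as a description with no test; of the black points, none passed an adjusted p of 0.05.

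The groups also differed in gonad transcripts, which the labels do not account for. Ovary markers summed to 219 to 1434 CPM in WT bodies, 0.287 to 17.3 CPM in M bodies and 0 to 171 CPM in S bodies. The part of this difference in the hormone levels was not tested.

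In the brains gh1 was not detected. It had 0 counts in all 11, which allowed up to 0.0321 CPM over the 11 together. Counts of fshb were 0 in all brains except S brain 3, with 4. Counts of tshba were 0 in 9 of 11 brains and 1 in the others, smtla gave 1 count in WT brain 1 and 0 elsewhere, and cga and lhb did not exceed 4 counts in any brain.

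Pro-opiomelanocortin is known to be expressed in hypothalamic neurons as well as in the pituitary, and its transcript was detected in every brain. The pomca counts were 39, 38 and 17 in the WT brains, 55, 68, 61 and 9 in the M brains, and 33, 44, 48 and 66 in the S brains. M brain 4 and WT brain 3 were low, and the groups overlapped. The means were 3.96 ± 1.71 CPM in WT (n = 3), 5.67 ± 3.17 in M (n = 4) and 5.42 ± 1.21 in S brains (n = 4).

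It was the single hormone gene with enough brain counts to be tested. The log2 difference was 0.52 for M against WT (SE 0.541, edgeR adjusted p = 0.593), 0.46 for S against WT (SE 0.541, adjusted p = 0.648) and 0.06 for M against S (SE 0.486, adjusted p = 0.956). None was called by edgeR, 0 had an unadjusted p under 0.05 and DESeq2 called 0. Of all 18733 genes tested in brains, 10.1% were called in M against WT, 10.3% in S against WT and 10.1% in M against S.

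In WT brain 3 the genes PMCH and pmchl, from the list of 21 rows of hypothalamic regulators, were also low. Other genes of that list were not: every brain held at least 235 counts of TRH, 194 of CRH and 481 of NPY. How many of the 21 rows were low in WT brain 3 was not counted. The melanin-concentrating hormone gene PMCH had 1 count there and 92 to 160 in the other 10 brains, and pmchl had 2 counts against 119 to 286. For oxt, made in the preoptic area, there were 2157 counts in WT brain 3, inside the range of 664 to 2930 in the others. M brain 4, with the lowest pomca, held 132 counts of PMCH and 227 of pmchl, so the libraries low in pomca were not alike in these genes. The part of such differences in the pomca level was not tested.

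Prolactin counts in brains were 1, 2 and 5 in WT, 1, 0, 1 and 8 in M and 4, 2, 3 and 6 in S. The highest, 8, came from M brain 4, which had the lowest pomca. Counts of smtlb were 7, 8 and 4 in WT, 1, 4, 0 and 3 in M and 7, 6, 3 and 0 in S brains. In CPM the WT brains lay above the M brains, at 0.468 or more against 0.424 or less, and the S brains overlapped both. WT brain 3 and M brain 2 tied at 4 counts, so the split between them came from the scaled library totals. How many genes show such a split was not counted, and smtlb had too few counts to be tested within brains. S brain 3, the brain with 4 counts of fshb and 4 of cga, also held 2083 CPM of epidermis markers and 162 CPM of muscle markers. In the other 10 brains those sums stayed at or below 311 and 14.6 CPM. The part of those tissues in its hormone counts was not tested.

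The prolactin paralog prl2 and the pro-opiomelanocortin paralog pomcb had their counts mostly in brains. There were 139 counts of prl2 over the 11 brains, 6 to 21 in each, and 5 over the 18 bodies. Counts of pomcb were 63 over the brains. How reads that fit both copies of a gene pair were counted is not given. Their part in the low prl counts of brains was not tested.

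Bodies and brains were then set against each other in the WT fish, in 1 fit of all 29 libraries, to see where the hormone transcripts lay. Of 6 hormone rows tested, 3 were called higher in WT bodies (gh1, cga and lhb) and 0 lower. Of all 22442 genes tested, 41.7% were higher and 37.9% lower in bodies. DESeq2 called 4 of the 6 hormone rows. In brains gh1 was at 0 counts and cga and lhb at no more than 4, too few to be tested within brains. These 3 rows thus entered the fit through their counts in bodies and could hardly have been called lower there. The split of 3 to 0 is therefore largely set by the filter on low counts. Tissue and any separate handling of the tables cannot be told apart here.

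As gh1 was at 0 in the WT brains, its difference is a bound: the summed WT bodies held at least 48.0-fold more than 3 counts over the WT brains would give, and all 18 bodies at least 221-fold more than all 11 brains. For lhb the log2 difference was 3.67 (SE 1.01, edgeR adjusted p = 0.00172), from 1.01 ± 0.553 CPM in WT bodies (n = 6) and 0.0664 ± 0.0577 in WT brains (n = 3) on the scale of this fit. For cga it was 4.86 (SE 1.60, adjusted p = 0.00742), from 1.33 ± 1.49 and 0.0347 ± 0.0601 CPM. The WT brains held 2 counts of lhb and 1 of cga in sum, so the sizes of both are loosely set, whereas all 6 WT bodies held more than 2 counts of lhb.

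Prolactin did not pass, at a log2 difference of 2.44 (SE 1.25, edgeR adjusted p = 0.0747) on all libraries. It passed without WT body 1, 2 or 5, the WT bodies at 0 counts of prl (values of 2.70 to 2.71), and with DESeq2 at 2.76 (adjusted p = 0.0373). For pomca the difference was -0.02 (SE 0.906, adjusted p = 0.988). For smtlb it was -0.41 (SE 0.944, adjusted p = 0.695). Without the 5 bodies prl stood at 3.44 and pomca at 0.94, again as a description with no test, since the WT bodies left out were the lowest in both.

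Summed over all lines, the ratio of bodies to brains in counts per library total was 1.004 for pomca, with a 95% interval of 0.899 to 1.12 that covers counting error alone. For pomca this sum joined unlike bodies: the ratio was 1.41 (1.26 to 1.58) for the 13 bodies against all brains and 0.714 (0.553 to 0.927) for WT bodies against WT brains. It was 0.846 (0.574 to 1.26) for smtlb, 4.74 (3.31 to 7.01) for prl, 6.15 (3.42 to 12.2) for lhb, 6.89 (2.54 to 26.2) for fshb and 8.32 (4.54 to 17.0) for cga. For tshba 35 counts in bodies stood against 2 in brains, a ratio of 8.61 (2.21 to 73.9). Thus, in these sums, prl and the glycoprotein subunits were higher in bodies beyond their counting error, which leaves out the spread between libraries. Of the body counts, all 318 of prl, all 56 of fshb and 183 of 186 of cga came from the 13 bodies. The 5 bodies held 0 counts of prl, 0 of fshb and 3 of cga in a total of 56085850. The 11 brains held 33, 4 and 11 in a total of 93578505. For pomca the side of 1 depended on which bodies were summed, and the interval of smtlb covered 1. These ratios are on plain totals. TMM factors in the fit of all 29 libraries were 0.714 to 0.964 in bodies and 1.187 to 1.282 in brains. On scaled totals each ratio of bodies to brains would thus be higher. On that scale pomca was at 3.17 ± 3.32 CPM in WT bodies and 3.22 ± 1.39 in WT brains, so its WT ratio below 1 depends on the scaling. PCR copies are not told apart in such counts, so the intervals cover counting error only.

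Whether a line's effect differed between body and brain was tested as an interaction in the same fit. Of 6 hormone rows tested, 0 were called for M or for S, where 12.3% and 9.17% of all genes were called, 0 had an unadjusted p under 0.05 and DESeq2 called 0. For gh1 this term has no meaning, since its brain counts were all 0. For pomca the interaction was 0.39 (SE 1.196, edgeR adjusted p = 0.883) for M and 0.89 (SE 1.19, adjusted p = 0.673) for S. For prl it was -0.03 (SE 2.31, adjusted p = 0.9999) and 0.52 (SE 1.75, adjusted p = 0.893).

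Genes other than the hormones whose levels over the 18 bodies ranked most like those of gh1 were found by Spearman's rho on log2 CPM, as a description. Genes with no symbol, or with a symbol that opens like a clone name, were passed over. The 18 libraries fall into the 5 and the 13, and they share depth and tissue make-up. The 10 named were dlg1a (0.83), VAMP4 (0.83), tsg101a (0.82), YWHAB (0.82), crp1 (0.78), ADRA2C (0.78), rgs16 (0.78), tuba1b (0.76), calm3b (0.76) and KHDRBS3 (0.76). Of the hormones, cga stood at 0.78, pomca at 0.65, prl at 0.59 and lhb at 0.47. By Pearson's r on the same values the order was another, with pomca at 0.980, prl at 0.974, cga at 0.906 and lhb at 0.197, against 0.833 for dlg1a and 0.862 for rgs16. For rgs16 the counts were 35 to 57 in the 5 bodies and 68 to 127 in the 13, with no overlap, and for dlg1a they were 249 to 368 and 277 to 457. No such list could be made in brains, where gh1 was at 0.

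Genes that act upstream or downstream of the hormones were described by lists. Their counts in bodies stand against 12.4% of all genes called higher and 20.7% lower in M, and 15.7% higher and 21.1% lower in S. Of 9 tested pituitary transcription factors, edgeR called 0 in M bodies (1 at an unadjusted p under 0.05, 1 by DESeq2) and 6 in S bodies, all higher. Of those 6 calls, 2 held in every fit that left out 1 library and 1 held without the 5 bodies. The fit without the 5 kept 3 WT, 4 M and 6 S bodies, picked by gh1 after the data were seen. A call kept or lost in it, here and below, is a description and no further test. Fewer bodies alone can also lose a call. The median log2 difference of the 9 in S was 0.65, beside 0.02 over all genes. EYA1, which takes part in forming pituitary cell types in zebrafish, rose in S bodies from 21.0 ± 6.51 to 37.7 ± 6.77 CPM (log2 0.84, SE 0.161, adjusted p = 0.000754), and its call held in every fit that left out 1 library. These factors are expressed in other organs too.

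Of 6 tested receptors through which hypothalamic signals reach the gland, 3 were called higher in M bodies and 1 in S bodies. In M 2 of the 3 calls held in every fit that left out 1 library and 2 without the 5 bodies, and the S call held in neither. The somatostatin receptor gene sstr5 rose in M bodies from 4.38 ± 1.28 to 7.90 ± 1.28 CPM (log2 0.85, SE 0.196, edgeR adjusted p = 0.00267). Its call was kept without the 5 bodies. Of the hypothalamic regulators, 9 were tested in bodies and 19 in brains. The somatostatin gene sst1.2, a precursor of the peptide that restrains growth hormone release, rose in bodies by 0.70 for M (SE 0.208, adjusted p = 0.0142) and 1.22 for S (SE 0.207, adjusted p = 0.000318). Without the 5 bodies the M call was lost and the S call was kept. In brains sst1.2 fell by 0.63 for M (SE 0.146, adjusted p = 0.0146) and by 0.56 for S (SE 0.146, adjusted p = 0.0245), but leaving out WT brain 1 or 2 lost both calls, and leaving out S brain 3 or 4 lost that of S (values of -0.79 to -0.51 in M and -0.72 to -0.44 in S, adjusted p up to 0.0576 and 0.0944). The interaction of tissue and line for sst1.2 was 1.30 for M (adjusted p = 0.00454) and 1.72 for S (adjusted p = 0.000956).

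Prohormones are cut and packed by a set of enzymes and granule proteins shared by endocrine cells and neurons. Of 9 tested, 2 were called higher in M bodies and 3 in S bodies, and in brains 4 were lower in M and 2 in S, where 5.19% and 4.73% of all genes were lower. In every fit that left out 1 library, 1 of the 2 body calls held in M and 2 of the 3 in S, and in brains 3 of the 4 held in M and 0 of the 2 in S. PAM, which amidates peptide ends, rose in bodies by 0.78 for M (SE 0.0934, edgeR adjusted p = 1.94e-05) and 0.56 for S (SE 0.0932, adjusted p = 0.000257). The granule gene chga fell in M brains from 333 ± 39.0 to 230 ± 14.1 CPM (log2 -0.53, SE 0.0839, adjusted p = 0.00159). In bodies 4 of the 9 neuron marker rows were called higher in S, and the median log2 difference of the 9 was 1.07 in S and 0.82 in M. Their part in the other lists was not tested.

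Of the receptors that read the pituitary hormones, 6 were tested in bodies and 9 in brains. In bodies 1 was called higher in each line, where 12.4% of all genes were higher in M and 15.7% in S. In brains 1 was called higher in M (0 by DESeq2) and 2 in S, where 4.93% and 5.59% of all genes were higher. The prolactin receptor PRLR was at 10.03 ± 1.67 CPM in WT, 12.7 ± 3.26 in M and 21.9 ± 3.49 in S bodies (n = 6 each). It rose in S bodies by 1.13 (SE 0.160, edgeR adjusted p = 8.05e-05) and the M minus S difference was -0.79 (SE 0.159, adjusted p = 0.00342). In brains it was at 17.7 ± 2.53 CPM in WT (n = 3), 17.8 ± 2.28 in M (n = 4) and 33.3 ± 2.07 in S (n = 4), a rise in S of 0.91 (SE 0.131, adjusted p = 0.000905). Each of these calls held in every fit that left out 1 library, and the body calls held without the 5 bodies. The hormone prl itself passed no test between groups, as given above. Of the growth hormone receptors, ghrb rose in M bodies by 0.58 (SE 0.150, edgeR adjusted p = 0.00645). Without the 5 bodies its value was 0.57 and the call was lost.

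Of 21 tested genes of the growth hormone axis in bodies, 3 passed as higher and 1 as lower for M, against 5 higher and 1 lower for S. Of these calls 2 of 4 for M and 5 of 6 for S held in every fit that left out 1 library. Without the 5 bodies 1 and 3 held. Of all genes tested in bodies, 12.4% were higher and 20.7% lower for M, and 15.7% and 21.1% for S. The list was not tested against those shares. The insulin-like growth factor receptor gene IGF1R (ENSDARG00000034434) rose in bodies by 0.76 for M (SE 0.122, edgeR adjusted p = 0.000158) and 0.47 for S (SE 0.122, adjusted p = 0.00662). In brains it rose by 0.76 for M (SE 0.111, adjusted p = 0.000992) and 0.68 for S (SE 0.111, adjusted p = 0.00213). All 4 calls held in every fit that left out 1 library and, in bodies, without the 5.

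Of 12 tested thyroid axis genes in bodies, 4 were called higher in M, and 4 higher and 4 lower in S. Of these calls 2 of 4 in M and 4 of 8 in S held in every fit that left out 1 library. Without the 5 bodies 0 and 4 held. Among all genes 12.4% were higher in M bodies, and 15.7% were higher and 21.1% lower in S bodies. The list was not tested against those shares. The deiodinase gene dio3b, whose enzyme inactivates thyroid hormone, rose in S bodies from 1.39 ± 0.738 to 13.8 ± 7.42 CPM (log2 3.298, SE 0.411, edgeR adjusted p = 2.77e-05). DIO1, whose enzyme can activate or clear thyroid hormone, fell by 0.99 on the log2 scale in S bodies (SE 0.137, adjusted p = 6.53e-05), and both calls held without the 5 bodies. The thyrotropin subunit tshba had too few counts to be set beside them.

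The gonadotropins and the adrenocorticotropic hormone act on steroid synthesis and response. Of 10 tested genes of that list, 3 were called lower in bodies of each line, and 1 was higher in S. Among all genes 20.7% were lower in M bodies, and 21.1% were lower and 15.7% higher in S bodies. CYP17A1, CYP11A1 and hsd3b2 were the lower genes, and CYP17A1 went from 21.6 ± 15.8 CPM in WT bodies to 1.65 ± 0.294 in M and 0.969 ± 0.455 in S (edgeR adjusted p = 6.53e-05 and 2.69e-05). The ovary markers given above were low in the same bodies, and their part was not tested.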

How the data were processed

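Libraries of polyA RNA, read as 150 bp pairs on an Illumina HiSeq per the labels, were deposited as raw gene counts in 1 table for bodies and 1 for brains. STAR and the builds GRCz10 and GRCz11 are named, without versions or roles, per the submitters' processing notes. How reads were counted per gene, and whether strand was used, is not given in the sources used here. Members and lists were chosen with earlier results of these data known. From the deposited counts, edgeR 4.0.16 in R 4.3.3 was run on all genes (TMM factors, filterByExpr with a minimum count of 10, robust quasi-likelihood F test, Benjamini-Hochberg adjustment over all genes tested, threshold 0.05), with the 3 groups of a tissue in 1 fit, and all 29 libraries in 1 fit for comparisons across tissues. DESeq2 1.42.0 was the second tool. Levels are CPM on TMM-scaled totals within a tissue. The floor was 3 counts and intervals are exact binomial at 95 percent. Other settings were RLE factors, no filter, no robust step, only the groups compared, a replicate block, plain totals and each library left out in turn; the fit without the 5 bodies was added after the data were seen.

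Named were all 9 hormone genes and up to 4 called members per list and comparison with the smallest p. Also named were 10 genes ranked most like gh1 (prior count 0.5). Those 10 leave out the hormones, genes with no symbol and genes whose symbol opens like a clone name. The last rule can also drop some named genes. List genes whose calls depended on 1 library are mostly given as counts. List genes missing under their zebrafish symbol were matched by synonym or by orthologue symbol. The fits were tested on simulated counts. Genome coordinates and sequences were not used here. No 2 libraries of a group differed by as little as sampling noise (lowest chi-square per degree of freedom 4.50).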

Additional observations from a re-analysis of the deposited data

Results flagged for a closer look

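Of 33 groups of 4 to 10 libraries with a hormone gene above 3 counts, 3 held a library far from the rest. Chance flags about 1 group in 20 for normally spread values, a rate that need not hold at counts this low. The flag of fshb below was fixed once 1 library held counts and the others 0. In M brains prl was at 0.892 CPM (8 counts) in replicate 4, and the nearest of the other 3 M brains was at 0.130 CPM. In S brains fshb was at 0.478 CPM (4 counts) in replicate 3 and at 0 in the others, and that library also held the most epidermis and muscle marker transcript of the 11 brains. In S bodies lhb was at 1.35 CPM (16 counts) in replicate 2, with the nearest of the others at 0.523 CPM.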

How the results depend on the processing

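Of the counts of hormone genes called, 232 recomputed values stayed within 1.5 times and 2 did not. The count for WT bodies against WT brains went from 3 to 5 with no filter on low counts, and to 5 without the 5 bodies at 0 or 1 gh1 count. The latter is no test, since those bodies were picked by gh1 and were low in the same hormones. With each library left out it was 3 to 4, and it was 0 in each comparison of lines. Of the log2 differences of hormone genes, 888 kept their direction and side of the threshold, 54 changed sign and 5 others newly passed it, all of prl in WT bodies against WT brains. Among the 54, pomca in that comparison also passed without the 5 bodies. The cause was not tested.

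Without the 5 bodies the changes of sign were, for M against WT, gh1 at -0.028 and lhb at -0.34, and for S against WT, gh1 at -0.67 and prl at -0.080. For M against S they were pomca at 0.11 and cga at 0.31, for WT body against brain pomca at 0.94, and for the S effect in body minus brain prl at -0.47 and pomca at -0.050. With DESeq2 pomca in WT body against brain was 0.21 and the M effect of prl in body minus brain 0.052, and with RLE factors these were 0.20 and 0.083.

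Same-numbered libraries correlated at -0.274 to 0.478 in bodies (10 of 18 pairs over 0.1) and at -0.252 to 0.125 in brains (2 of 10), so the numbers were not taken as pairs. The replicate block changed no count of hormone genes called (0 in each comparison of lines, 3 for WT body against brain). It turned the sign of prl in M against WT (0.053), cga in S against WT (0.36), gh1 in M against S (-0.85), pomca in brains of M against S (-0.11) and the M effect of prl in body minus brain (0.53).

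With 1 library left out in turn, M against WT in bodies ran from -0.013 to 0.86 for gh1, -0.44 to 0.33 for prl, -0.088 to 0.36 for lhb and -0.87 to 0.069 for cga. S against WT ran from -0.58 to 0.29 for cga, and M against S from -0.34 to 0.33 for gh1 and -0.56 to 0.045 for cga. In brains M against S ran from -0.15 to 0.41 for pomca, and WT body against brain from -0.41 to 0.24. For the M effect in body minus brain the ranges were -0.76 to 1.67 for prl and -1.01 to 0.20 for lhb, and for the S effect -0.21 to 1.025 and -1.98 to 0.093.

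Over all genes, the calls in bodies went from 6698 to 2423 for M against WT and from 7444 to 3091 for S against WT without the 5 bodies, and the calls of the M and S effects in body minus brain from 2767 to 1219 and from 2058 to 803. With only the groups compared, the calls were 1186 in place of 1895 for M against WT in brains and 1833 and 1302 for both effects, and DESeq2 called 3112 for the S effect. Leaving out 1 library took M against WT in brains as low as 1060 (WT brain 3), S against WT as low as 895 (WT brain 3) and M against S as low as 1068 (M brain 2), and the S effect to between 1043 (WT brain 2) and 3439 (WT body 6). Of the list genes called in bodies, 12 of 18 for M and 18 of 30 for S held in every fit with 1 library left out, and in brains 4 of 10 and 4 of 9. Low counts limited the tests: 5 of 10 hormone rows could be tested in bodies and 1 in brains.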
